A study of Rattus norvegicus with 12 samples.

Results

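The genes described here code for the potassium, sodium and calcium channels of the rat brain that open and close with voltage, ligands or metabolic state, together with their auxiliary subunits. They were picked by name from the count table of all 12 libraries, with earlier results of these data known. The rule took symbols that begin with Kcn or Cacna, the sodium channel genes Scn followed by a number and a or b, and Cacnb followed by a number. Kcnj8, Kcnj10 and Kcne2, which are read mainly in pericytes, glia and choroid plexus, were left out by the same rule. This gave 120 channel genes among 17337 rows. Of these, 111 had enough reads for the test, among 12850 genes tested. The other 9 are listed at the end.

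The study compared brains of male Sprague-Dawley rats at postnatal day 60, in 4 groups of 3 rats. AAV-VEGFC rats had a bile duct ligation (BDL) and were given an adeno-associated virus (AAV) that carries VEGFC, a growth factor of lymphatic vessels. AAV-GFP rats had the same ligation and an AAV that carries green fluorescent protein. BDL rats had the ligation for 4 weeks and no vector, and sham rats had neither. Bile duct ligation blocks the outflow of bile and is used as a model of cirrhosis and hepatic encephalopathy. Both vectors were injected in 20 µl into the cisterna magna, the fluid space below the cerebellum. The labels give no injection for BDL or sham rats, and the promoter that drives either vector is not given in the sources used here. Comparing either AAV group with BDL therefore covers the ligated animal with an injection and a vector against the ligated animal without them, while AAV-VEGFC against AAV-GFP sets vectors with different cargo side by side.

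Sodium channels carry the rising phase of the action potential, calcium channels couple that depolarisation to transmitter release and gene expression, and potassium channels repolarise the membrane and set its resting level. Each sodium and calcium channel has 1 large pore-forming subunit, helped to the membrane and tuned by smaller beta and alpha2delta subunits. Potassium channels are the most varied of the families: voltage-gated channels end the action potential, inward rectifiers and 2-pore-domain channels hold the resting potential, and calcium- and sodium-activated channels slow repetitive firing. Most are read in neurons, some also in glia and vessel cells. In bulk tissue, fewer cells of a type and less RNA per cell cannot be told apart.

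Library totals ran from 40296297 to 51669067 counts, and channel genes took 0.875% to 1.06% of the reads in every library except AAV-VEGFC 1, where they took 0.644%. Levels are CPM, the library's reads scaled to a common total with edgeR's TMM factors, and adjusted p is from edgeR's quasi-likelihood test with Benjamini-Hochberg adjustment over all tested genes, with a threshold of 0.05. CPM values are not scaled by gene length, so they are compared between samples and not between genes. The tissue, called middle brain in the series, carried Slc17a7, the vesicular glutamate transporter of forebrain neurons, at 1249 to 2028 CPM, and Th, the enzyme that starts dopamine synthesis, at 0.652 to 1.70 CPM. The 6 markers of midbrain monoamine neurons summed to 6.04 to 11.1 CPM. Some libraries stood apart. Choroid plexus markers summed to 276 CPM in sham 2 and to 67.7 CPM or less in the other 11 libraries. Hypothalamus markers summed to 85.0 CPM in AAV-GFP 1 and to 13.3 CPM or less elsewhere, and oligodendrocyte markers summed to 17990.1 CPM in AAV-VEGFC 1 and to 13707 CPM or less elsewhere. Counts that change without these 3 libraries are given both ways. Pituitary markers summed to 54.7 CPM in AAV-VEGFC 3 and to 1.44 CPM or less elsewhere; this library was left out on its own, not together with the 3.

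In ligated rats that received a vector, a small set of channel genes lay below its level in ligated rats without one, and in each of the vector groups 3 of the called genes were calcium channel pores. Against BDL, 5 of 111 tested channel genes passed the test in AAV-GFP rats, each of them lower. That is 4.50% of the channel genes. Of all tested genes 6.19% were called in that comparison, 5.20% lower and 0.988% higher. In AAV-VEGFC rats against BDL, 7 of 111 channel genes passed, 6 lower and 1 higher. These are 6.31%, where 9.93% of all tested genes were called, 7.02% lower and 2.91% higher. The share of channel genes called was therefore no greater than the share of all genes in either comparison. Every AAV-GFP value lay below every BDL value for 20 channel genes (18%, beside 20.0% of all tested genes) and above for 6 (5.41%, beside 18.2%). For AAV-VEGFC against BDL the counts were 25 below (22.5%, beside 18.3%) and 5 above (4.50%, beside 14.6%). Both comparisons use the same 3 BDL libraries, so their values stand side by side and are not separate evidence. The counts moved with single libraries. AAV-GFP against BDL gave 1 call without BDL 1 (0.893% of channel genes, beside 2.98% of all tested genes) and 10 calls, the most, without AAV-GFP 1 (9.01%, beside 6.64%). AAV-VEGFC against BDL gave 2 calls without BDL 1 (1.79%, beside 4.52%) or without BDL 3 (1.80%, beside 5.45%) and 21, the most, without AAV-VEGFC 1 (18.75%, beside 17.6%). Without AAV-VEGFC 3 it gave 6, all lower (5.36%, beside 9.89%). Without all 3 libraries that stood apart, 32 channel genes passed in AAV-GFP against BDL, 7 higher and 25 lower (28.8%, beside 28.3% of all tested genes, 12.7% higher and 15.6% lower). In AAV-VEGFC against BDL 37 passed, and there most were higher, 25 against 12 lower (33.3%, beside 24.2% of all tested genes, 10.7% higher and 13.6% lower). The 5 genes called in AAV-GFP rats and the 7 called in AAV-VEGFC rats with all libraries were among them, each in the same direction. In a fit of the AAV-VEGFC and BDL libraries alone, Cacna1h was the 1 channel gene called (0.926%, beside 2.62% of all tested genes). The other 6 had adjusted p between 0.0606 and 0.193 there.

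Among the calcium channel pores, Cacna1h, the T-type channel that opens at low voltage and supports burst firing, stood at 67.1, 60.1 and 62.9 CPM in AAV-VEGFC rats, 71.2, 88.2 and 86.5 CPM in AAV-GFP rats, 115, 104 and 109 CPM in BDL rats and 87.8, 93.7 and 95.2 CPM in sham rats. No AAV-VEGFC value reached the AAV-GFP range, no AAV-GFP value reached the BDL range, and no sham value reached the BDL range either. Cacna1h fell by 42.1% in AAV-VEGFC rats against BDL rats, a log2 fold change of -0.79 ± 0.09 (SE; adjusted p = 0.000368, edgeR). The log2 fold change in AAV-GFP rats against BDL rats was -0.42 ± 0.09 (adjusted p = 0.0169). The first call held without each single library in turn and under the 8 other settings tried, while the second was lost without BDL 1 (adjusted p = 0.0810) and without BDL 3. In the RefSeq annotation Cacna1h overlaps Tpsg1, and reads of overlapping genes cannot be told apart without strand.

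Cacna1d, an L-type channel that opens at lower voltages than its relatives, stood at 33.7, 62.0 and 64.8 CPM in AAV-VEGFC rats, 52.2, 52.6 and 54.2 CPM in AAV-GFP rats, 91.8, 89.8 and 84.3 CPM in BDL rats and 93.3, 83.0 and 83.9 CPM in sham rats. All 6 vector values lay below all 6 values without a vector, with AAV-VEGFC 1 lowest. Its log2 fold change against BDL was -0.73 ± 0.19 in AAV-VEGFC rats (adjusted p = 0.0313) and -0.74 ± 0.19 in AAV-GFP rats (adjusted p = 0.0388). Cacna1e, the R-type channel of presynaptic terminals and dendrites, stood at 96.0, 165 and 131 CPM in AAV-VEGFC rats, 149, 135 and 129 CPM in AAV-GFP rats, 232, 192 and 217 CPM in BDL rats and 222, 191 and 201 CPM in sham rats. The same separation held for it, and its log2 fold change against BDL was -0.71 ± 0.16 in AAV-VEGFC rats (adjusted p = 0.0187) and -0.63 ± 0.16 in AAV-GFP rats (adjusted p = 0.0415). These calls were close to the threshold. For AAV-GFP against BDL, both genes lost the call without any 1 of the 6 libraries, with adjusted p up to 0.124 for Cacna1d and 0.154 for Cacna1e, both without BDL 1. For AAV-VEGFC against BDL, Cacna1d lost it without any 1 BDL library (up to 0.102, without BDL 1), and Cacna1e without BDL 1 (0.0808) or BDL 3.

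The other calcium channel pores did not pass in the 12-library fit. Cacna1a, the P/Q-type channel of fast transmitter release, stood at 148, 253 and 268 CPM in AAV-VEGFC rats, 214, 260.2 and 255 CPM in AAV-GFP rats and 279.9, 279 and 289 CPM in BDL rats. Both vector groups lay below the BDL range, yet the log2 fold changes missed the threshold, at -0.34 ± 0.18 in AAV-VEGFC rats (adjusted p = 0.226) and -0.22 ± 0.18 in AAV-GFP rats (adjusted p = 0.531). For Cacna1b, the N-type channel of presynaptic terminals, they were -0.30 ± 0.21 in AAV-VEGFC rats and -0.23 ± 0.21 in AAV-GFP rats. For Cacna1c, the main L-type channel of forebrain neurons, they were -0.31 ± 0.15 in AAV-VEGFC rats and -0.11 ± 0.15 in AAV-GFP rats, with groups that overlapped. Summed over the 10 calcium channel pores, the level was 609, 1044 and 1024 CPM in AAV-VEGFC rats, 958, 987 and 971 CPM in AAV-GFP rats, 1254, 1163 and 1229.6 CPM in BDL rats and 1345, 1212 and 1270.1 CPM in sham rats. The 6 vector libraries thus lay below the 6 others in this sum, and 8 of 9 tested pores had a negative log2 fold change against BDL in each vector group. The median over these 9 was -0.34 in AAV-VEGFC rats and -0.23 in AAV-GFP rats, beside medians over all tested genes of 0.00 in AAV-VEGFC rats and 0.01 in AAV-GFP rats. Of the alpha2delta and beta subunits, which carry the pore to the membrane, none passed in that fit. Without the 3 libraries that stood apart, AAV-GFP against BDL called 1 alpha2delta subunit higher, 2 lower, and 2 beta subunits lower (beside 28.3% of all tested genes). AAV-VEGFC against BDL called 1 alpha2delta subunit higher, 1 lower, and 1 beta subunit higher there (beside 24.2%). Cacna2d1, the alpha2delta subunit bound by gabapentin, had log2 fold changes of -0.34 ± 0.15 in AAV-VEGFC rats and -0.36 ± 0.15 in AAV-GFP rats against BDL, and Cacnb3, a beta subunit, had 0.19 ± 0.08 in AAV-VEGFC rats and 0.21 ± 0.08 in AAV-GFP rats. Cacnb3 was the exception in direction: 3 of 4 beta subunits had a negative log2 fold change against BDL in each vector group. The median over the 4 was -0.15 in AAV-VEGFC rats and -0.12 in AAV-GFP rats.

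Among the sodium channel pores, Scn9a, best known from sensory and sympathetic neurons, stood at 0.731, 1.54 and 2.81 CPM in AAV-VEGFC rats, 1.21, 2.57 and 1.60 CPM in AAV-GFP rats, 9.73, 6.25 and 7.01 CPM in BDL rats and 5.04, 5.75 and 5.35 CPM in sham rats. Every vector library lay below every library without a vector. Against BDL the log2 fold change was -2.17 ± 0.41 in AAV-VEGFC rats (adjusted p = 0.00725) and -2.10 ± 0.41 in AAV-GFP rats (adjusted p = 0.0112), so that the level fell by 77.8% in AAV-VEGFC rats and fell by 76.6% in AAV-GFP rats. The AAV-VEGFC call held without each single library and was lost when the compared groups were fitted alone (adjusted p = 0.0606). The AAV-GFP call was lost without BDL 1 or AAV-GFP 3 (up to 0.0586, without AAV-GFP 3). The main pores of central neurons did not pass. Scn2a, the pore of axon initial segments in excitatory neurons, stood at 365, 788 and 754 CPM in AAV-VEGFC rats, 657, 669.8 and 699 CPM in AAV-GFP rats and 752, 731 and 761 CPM in BDL rats, with a log2 fold change of -0.23 ± 0.21 in AAV-VEGFC rats and -0.15 ± 0.21 in AAV-GFP rats. Scn8a, the pore of nodes of Ranvier, had -0.16 ± 0.23 in AAV-VEGFC rats and -0.10 ± 0.23 in AAV-GFP rats, and Scn3a, which is read most before birth, had -0.31 ± 0.17 in AAV-VEGFC rats and -0.28 ± 0.17 in AAV-GFP rats.

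Sodium channel beta subunits, which anchor and tune the pore, gave no call in the 12-library fit. Scn2b had log2 fold changes against BDL of -0.01 ± 0.16 in AAV-VEGFC rats and 0.07 ± 0.16 in AAV-GFP rats, with overlapping groups.

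Potassium channels gave few calls, and these came from outside the voltage-gated pores. Kcnmb4, the neuronal beta subunit that slows the large-conductance calcium-activated potassium channel, stood at 57.9, 66.4 and 69.5 CPM in AAV-VEGFC rats, 59.4, 66.1 and 63.3 CPM in AAV-GFP rats, 51.1, 51.8 and 54.7 CPM in BDL rats and 49.2, 50.4 and 51.8 CPM in sham rats. All 6 vector values lay above all 6 values without a vector. The log2 fold change against BDL was 0.30 ± 0.08 in AAV-VEGFC rats (adjusted p = 0.0321) and 0.26 ± 0.08 in AAV-GFP rats (adjusted p = 0.0724). The AAV-VEGFC call held without AAV-VEGFC 1 and was lost without any 1 of the other 5 libraries (up to 0.124, without BDL 2). Kcnma1, the pore that Kcnmb4 joins, had -0.32 ± 0.20 in AAV-VEGFC rats and -0.24 ± 0.20 in AAV-GFP rats, neither past the threshold.

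Kcnk4, a 2-pore-domain leak channel gated by membrane stretch and lipids, stood at 14.0, 17 and 20.0 CPM in AAV-VEGFC rats, 17.4, 16.9 and 18.2 CPM in AAV-GFP rats, 21.9, 25.7 and 23.9 CPM in BDL rats and 31.3, 27.2 and 26.0 CPM in sham rats. Its vector groups lay below the BDL range and the BDL group below the sham range. The log2 fold change against BDL was -0.48 ± 0.12 in AAV-VEGFC rats (adjusted p = 0.0327) and -0.45 ± 0.12 in AAV-GFP rats (adjusted p = 0.0602). Kcnt2, a sodium-activated potassium channel, stood at 28.8, 33.6 and 29.1 CPM in AAV-VEGFC rats, 24.9, 36.1 and 35.5 CPM in AAV-GFP rats, 46.8, 38.7 and 43.5 CPM in BDL rats and 54.7, 46.8 and 52.6 CPM in sham rats. The same order of groups held, with AAV-VEGFC and AAV-GFP overlapping. Its log2 fold change against BDL was -0.50 ± 0.14 in AAV-VEGFC rats (adjusted p = 0.0443) and -0.42 ± 0.14 in AAV-GFP rats (adjusted p = 0.104). Without any 1 BDL library both AAV-VEGFC calls were lost, with adjusted p up to 0.118 for Kcnk4 (without BDL 2) and 0.156 for Kcnt2 (without BDL 1). The Kcnt2 call was lost also without AAV-VEGFC 1 or AAV-VEGFC 3.

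Kcnk16, a leak channel known from pancreatic beta cells, passed in AAV-GFP rats at a very low level, and its naming was decided after its values were seen. It stood at 0.504, 0.698 and 0.505 CPM in AAV-VEGFC rats, 0.146, 0.332 and 0.316 CPM in AAV-GFP rats, 1.56, 1.68 and 0.844 CPM in BDL rats and 0.860, 1.45 and 1.19 CPM in sham rats, with every vector value below every value without a vector. Its log2 fold change was -2.35 ± 0.41 in AAV-GFP rats against BDL (adjusted p = 0.00590), which held without each single library, and -1.25 ± 0.38 in AAV-VEGFC rats against BDL (adjusted p = 0.0616). Kcnk16 overlaps Nudt13 in the RefSeq annotation, and the reads of the pair cannot be told apart.

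**Figure D1:**
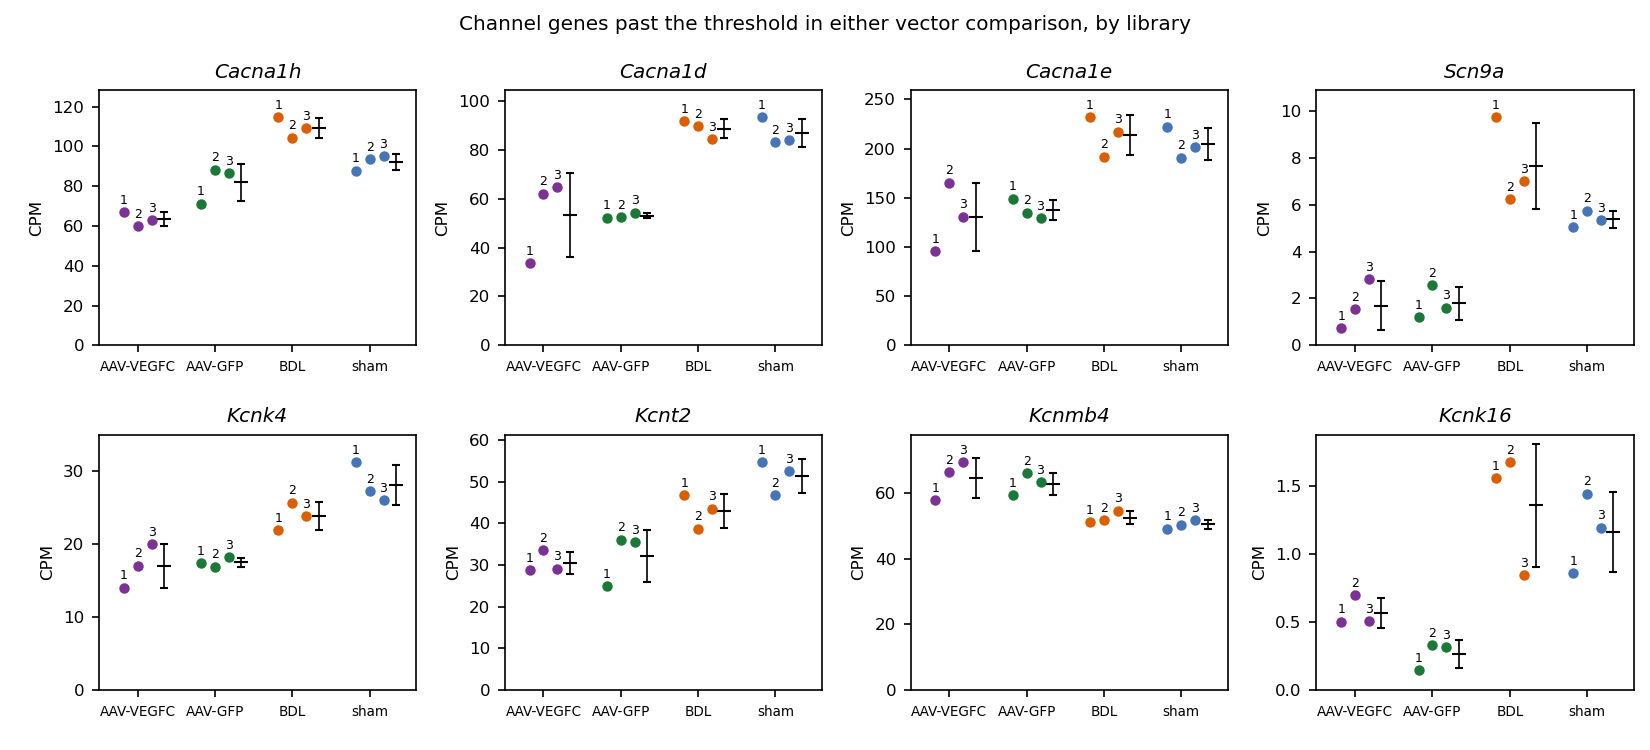
CPM of the 8 channel genes past the threshold in AAV-GFP or AAV-VEGFC rats against BDL, 1 panel a gene, with the 4 groups on the x axis, points numbered by library and bars for the mean ± SD (n = 3). Cacna1d, Cacna1e, Scn9a, Kcnk4, Kcnt2 and Kcnk16 sit lower and Kcnmb4 higher in all 6 vector libraries than in all 6 others, while Cacna1h also differs between BDL and sham rats.

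Of the 38 tested voltage-gated potassium pores, none passed against BDL in either vector group in the 12-library edgeR fit. In AAV-VEGFC against BDL, 7 passed as higher and 1 as lower without AAV-VEGFC 1, where 17.6% of all tested genes were called. Without the 3 libraries that stood apart, 12 passed as higher and 1 as lower, beside 24.2% of all. With limma voom 6 passed as higher and 1 as lower, beside 19.4% of all. In AAV-GFP against BDL, 2 passed as higher and 4 as lower without the 3 libraries, beside 28.3% of all tested genes. With limma voom 3 passed as higher and 4 as lower there, beside 36.5% of all. In the 12-library fit their median log2 fold change was 0.00 in AAV-VEGFC rats and -0.01 in AAV-GFP rats. Kcnd2, the A-type pore of dendrites, had -0.08 ± 0.13 in AAV-VEGFC rats and 0.11 ± 0.13 in AAV-GFP rats. None of the 12 tested inward rectifiers passed in that fit either. In AAV-VEGFC against BDL, 3 passed as higher and 1 as lower without AAV-VEGFC 1 and also with limma voom, and 4 as higher and 1 as lower without the 3 libraries. The shares of all tested genes called in these fits are those given above. Kcnj6, a G-protein-gated pore, stood at 186, 314 and 262 CPM in AAV-VEGFC rats, 226, 419.8 and 358 CPM in AAV-GFP rats and 340.4, 370.0 and 334 CPM in BDL rats, with the AAV-VEGFC values below the BDL range (log2 fold change -0.45 ± 0.22, adjusted p = 0.193).

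The vector groups also differed from the others in the make-up of the RNA. Rn18s, an RNA of the small ribosomal subunit, lay at 4245 to 11882 CPM in the 6 vector libraries and at 1357 to 2988 CPM in the 6 others. Snhg11, a neuronal RNA kept largely in the nucleus, lay at 27.1 to 40.9 CPM in vector libraries and 168 to 215 CPM in the others, and Miat, also nuclear, at 82.6 to 133 CPM against 374 to 484 CPM. Of 5 endothelial markers, 4 were called higher in AAV-VEGFC rats against BDL and 3 in AAV-GFP rats against BDL. Their sum was 414 to 457 CPM in AAV-VEGFC rats, 392 to 428 CPM in AAV-GFP rats and 245 to 330.3 CPM in BDL rats. None of the 6 pan-neuronal markers passed in either comparison, and 1 of 6 inhibitory neuron markers was called higher in AAV-VEGFC against BDL. The part of these differences in the channel results was not tested. The labels hold no batch, so vector, injection and any batch cannot be told apart.

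Of the 8 genes past the threshold, 4 had a promoter in the RefSeq table, and these are shown because in each of them all 6 vector libraries lay on the same side of the 6 others. The sequences are from RefSeq (GRCr8, another build than the rn6 of the counts), 250 bases before to 50 bases after the gene start, 5′ to 3′ on the gene's strand. Capitals mark the GC box GGGCGG on either strand, overlapping matches included.
Cacna1d, chr16:5527500-5527799, minus strand: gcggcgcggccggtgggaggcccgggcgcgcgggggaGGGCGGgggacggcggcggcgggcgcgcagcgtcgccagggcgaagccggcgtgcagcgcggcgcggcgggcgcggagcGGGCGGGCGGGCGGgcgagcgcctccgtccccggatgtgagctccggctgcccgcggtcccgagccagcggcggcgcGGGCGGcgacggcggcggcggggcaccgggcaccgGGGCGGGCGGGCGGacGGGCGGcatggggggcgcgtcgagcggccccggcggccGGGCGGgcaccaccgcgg
Cacna1e, chr13:69444761-69445060, minus strand: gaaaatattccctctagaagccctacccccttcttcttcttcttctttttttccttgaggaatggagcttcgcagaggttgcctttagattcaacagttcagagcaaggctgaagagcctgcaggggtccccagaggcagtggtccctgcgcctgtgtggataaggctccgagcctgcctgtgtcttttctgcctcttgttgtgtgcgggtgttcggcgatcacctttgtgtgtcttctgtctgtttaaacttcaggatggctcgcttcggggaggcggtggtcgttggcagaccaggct
Scn9a, chr3:71701328-71701627, minus strand: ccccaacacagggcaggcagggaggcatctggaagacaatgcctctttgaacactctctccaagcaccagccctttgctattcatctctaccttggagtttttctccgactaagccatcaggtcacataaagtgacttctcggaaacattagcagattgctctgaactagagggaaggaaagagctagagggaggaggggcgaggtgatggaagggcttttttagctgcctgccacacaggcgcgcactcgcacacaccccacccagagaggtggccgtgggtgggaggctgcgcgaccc
Kcnmb4, chr7:54005052-54005351, minus strand: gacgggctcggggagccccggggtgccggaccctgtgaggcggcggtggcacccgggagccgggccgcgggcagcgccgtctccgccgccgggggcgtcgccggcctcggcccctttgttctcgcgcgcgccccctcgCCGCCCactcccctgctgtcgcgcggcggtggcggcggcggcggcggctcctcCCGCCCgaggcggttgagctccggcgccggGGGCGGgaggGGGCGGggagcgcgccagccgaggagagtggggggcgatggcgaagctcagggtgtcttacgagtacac
The Cacna1d window held 10 GC boxes and 66 CG dinucleotides, and the Kcnmb4 window 4 and 48. The windows of Cacna1e and Scn9a held no GC box, with 10 and 9 CG dinucleotides. The lowered genes shown thus include both kinds of start region. These 4 windows are too few to compare start region with direction. Of the 120 channel genes, 82 had a promoter in the table, and 41 of these (50%) held a GC box, beside 33.1% of all 33469 promoters. A single promoter was kept for each channel gene, while the 33469 were not reduced in this way or limited to tested genes. The sets are therefore not matched, here and in the shares that follow. TATAAA on either strand was found in 3.66% of channel promoters and 14.2% of all, CCAAT in 22.0% and 37.5%, CACGTG in 3.66% and 6.42%, and TGACG in 20.7% and 21.2%. The median number of CG dinucleotides was 12.5 in channel promoters and 7 in all promoters. These counts describe letters in the window and say nothing of binding.

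Between AAV-VEGFC and AAV-GFP rats, both of which carried a vector, no channel gene passed. At an unadjusted p under 0.05, 5 of 111 stood out (4.50%), beside 4.37% of all tested genes, and DESeq2 and limma voom also called 0. Of all tested genes 0.00778% were called. The 3 channel genes with the smallest p were Cacna1h, Scn3b and Kcnk16. Cacna1h, with the values given above, had a log2 fold change of -0.37 ± 0.09 (adjusted p = 0.948). Scn3b, a beta subunit that shifts sodium channel inactivation, stood at 408, 395 and 318 CPM in AAV-VEGFC rats, 337, 769 and 649 CPM in AAV-GFP rats, 526, 527 and 517 CPM in BDL rats and 441, 441 and 481 CPM in sham rats. AAV-GFP 1 lay inside the AAV-VEGFC range while AAV-GFP 2 and 3 lay far above it, and the log2 fold change was -0.65 ± 0.23 (adjusted p = 0.948). Without AAV-GFP 1, Scn3b (-0.93 ± 0.11, adjusted p = 0.0439) and Cacna1h (-0.47 ± 0.07, adjusted p = 0.0439) passed, beside 0.170% of all genes. Kcnk16 had 1.10 ± 0.41 (adjusted p = 0.948), at levels under 1 CPM in both groups.

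The count in this comparison turned on single libraries. When sham 2, AAV-GFP 1 and AAV-VEGFC 1 were left out, which leaves 2 libraries in each vector group, 33 channel genes passed, 27 higher and 6 lower. That is 29.7% of the channel genes, where 9.26% of all tested genes passed, 4.85% higher and 4.41% lower. The 27 included 12 voltage-gated potassium pores, 3 sodium pores and 3 calcium pores. Kcnh7, a pore of the ether-a-go-go-related group, had a log2 fold change of 0.76 ± 0.08 there (adjusted p = 0.00290), against 0.25 ± 0.30 with all libraries. Scn1a, the pore of fast-spiking inhibitory neurons, had 0.65 ± 0.11 (adjusted p = 0.00971), against 0.24 ± 0.34 with all libraries, and Kcnh5 had 1.04 ± 0.18 (adjusted p = 0.0117), against 0.46 ± 0.44. Scn3b had -0.99 ± 0.10 and Cacna1h -0.50 ± 0.06, both still lower. Each vector group then rests on 2 rats, and several marker sums did not overlap between them. Striatum markers summed to 848 and 1699 CPM in the AAV-VEGFC rats kept and to 302 and 711 CPM in the AAV-GFP rats kept, and inhibitory neuron markers to 878 and 949 CPM in AAV-VEGFC and 717 and 769.5 CPM in AAV-GFP rats. Excitatory neuron markers summed to 3235 and 2954 CPM in AAV-VEGFC and 4060.2 and 3702 CPM in AAV-GFP rats, and astrocyte markers to 3111 and 2868 CPM in AAV-VEGFC and 3750.0 and 3452 CPM in AAV-GFP rats. Pan-neuronal markers overlapped, and the pituitary markers of AAV-VEGFC 3 remain in this fit. The part of these markers was not tested.

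AAV-VEGFC 1 held less channel RNA than the other 11 libraries. Each gene was set against its own median over the 12 libraries on the log2(CPM + 0.5) scale. The median deviation of the 111 channel genes was -0.46 in AAV-VEGFC 1 and between -0.11 and 0.09 in the other 11, while the median over all tested genes was 0.00 in AAV-VEGFC 1. It was the lowest of the 12 libraries for 61 of 111 channel genes (55.0%), and for 26.4% of all tested genes.

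**Figure D2:**
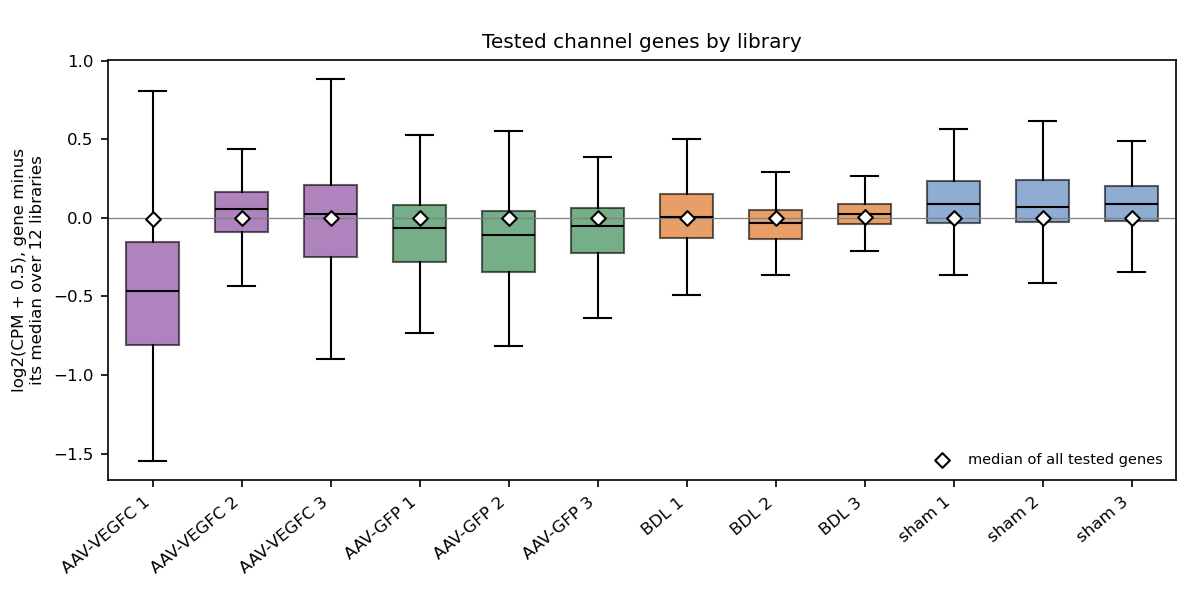
Deviation of the 111 tested channel genes from each gene's median over 12 libraries, in log2(CPM + 0.5), by library (boxes: quartiles, whiskers to the last gene within 1.5 box lengths; diamonds: median of all tested genes). The AAV-VEGFC 1 box has a median of -0.46, below those of the other 11 libraries, and the sham boxes have medians of 0.07 to 0.09.

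Set against the mean of AAV-VEGFC 2 and 3, AAV-VEGFC 1 was lower for 87 of 111 channel genes (78.4%), beside 47.4% of all tested genes, and lower by over 1 on the log2 scale for 21 (18.9%), beside 1.80% of all. The shift differed by role. The median difference was -0.86 for sodium pores, -0.75 for calcium pores, -0.72 for voltage-gated potassium pores and -0.62 for inward rectifiers, and 0.03 for potassium channel auxiliary subunits. Scn1a, for one, stood at 62.1, 199 and 235 CPM in AAV-VEGFC libraries 1 to 3, and Kcnh5, a pore of the ether-a-go-go family, at 8.47, 37.9 and 46.5 CPM. Kcnj16, an inward rectifier of glial cells, ran the other way, at 25.9, 12.9 and 4.66 CPM. Marker sums of this library also stood off from those of its group. Pan-neuronal markers summed to 4291, 6364 and 6407 CPM in AAV-VEGFC 1 to 3 and inhibitory neuron markers to 611, 878 and 949 CPM, lowest in AAV-VEGFC 1, whereas excitatory neuron markers summed to 3395, 3235 and 2954 CPM and were highest there. Oligodendrocyte markers summed to 17990.1, 10370.3 and 13707 CPM in AAV-VEGFC 1 to 3, astrocyte markers to 4803, 3111 and 2868 CPM, microglia markers to 430.4, 266 and 277 CPM and red blood cell markers to 1215, 875 and 878 CPM, each highest in AAV-VEGFC 1. In these lists no marker was at 0 in all libraries. The part of cell make-up in the lower channel levels was not tested.

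**Figure D3:**
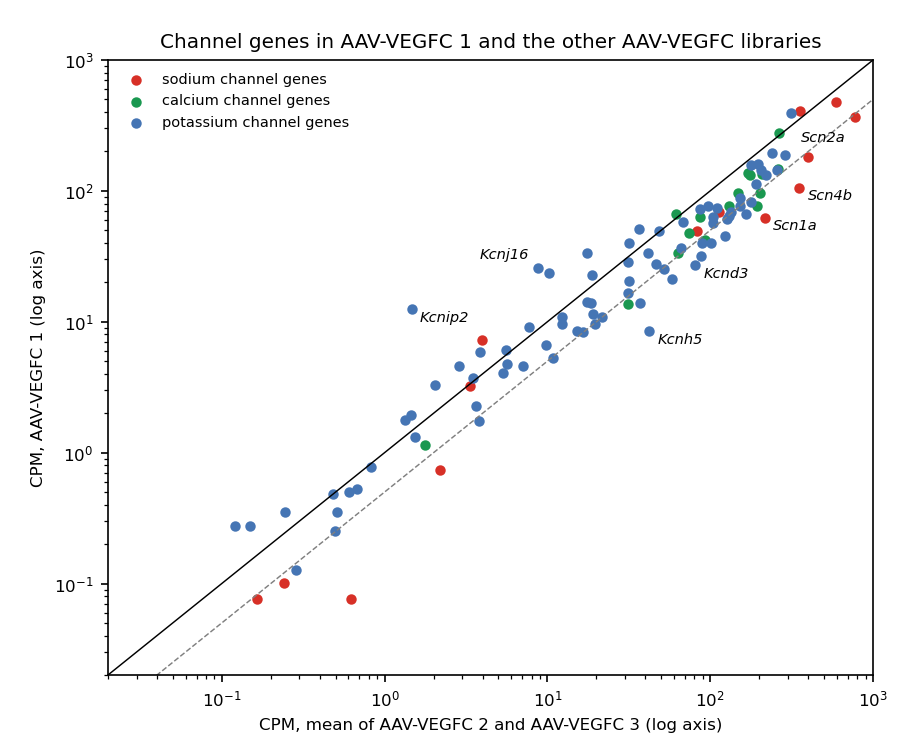
CPM of the tested channel genes in AAV-VEGFC 1 (y axis) against the mean of AAV-VEGFC 2 and 3 (x axis), both on log axes, with the solid line at equality and the dashed line at 1 on the log2 scale below it. On the log2(CPM + 0.5) scale, 87 of the 111 genes were lower in AAV-VEGFC 1 and 21 lower by over 1. The axes show CPM without the added 0.5, so points of low level can fall on another side of a line. Kcnj13, at 0 CPM in AAV-VEGFC 1, is not drawn.

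Without AAV-VEGFC 1, AAV-VEGFC against BDL gave 21 calls among the channel genes in place of 7. Of these, 14 were higher and 7 lower, while 17.6% of all tested genes were called. The lowered genes included Cacna1h (-0.83 ± 0.09, adjusted p = 0.000328), Cacna1d (-0.48 ± 0.06), Cacna1e (-0.53 ± 0.12) and Scn9a (-1.82 ± 0.35). Among the raised ones were Scn1a (0.65 ± 0.10, adjusted p = 0.00173), Kcnc1, a pore of fast-spiking neurons (0.38 ± 0.06), and Kcnj11, the pore of the ATP-sensitive channel (0.50 ± 0.10). With all libraries Scn1a had 0.26 ± 0.34, Kcnc1 0.06 ± 0.26 and Kcnj11 0.27 ± 0.19, none past the threshold. Beside this, pan-neuronal markers summed to 6364 and 6407 CPM in the AAV-VEGFC rats kept and 5240.2, 5216 and 5314 CPM in BDL rats, inhibitory neuron markers to 878 and 949 CPM in AAV-VEGFC and 767, 706 and 805 CPM in BDL rats, and striatum markers to 848 and 1699 CPM in AAV-VEGFC and 743, 456 and 807 CPM in BDL rats, each higher without overlap. Their part in the raised channel genes was not tested. The direction of the lowered genes was the same with and without this library.

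Ligation alone gave no called channel gene in the fit of all 12 libraries, yet many members sat slightly lower in BDL than in sham rats. DESeq2 also called 0, and 6 of 111 (5.41%) had an unadjusted p under 0.05, beside 5.90% of all tested genes, of which 0.109% were called. For 35 of 111 channel genes (31.5%) every BDL value lay below every sham value, beside 12.4% of all tested genes. For 7 (6.31%) every BDL value lay above, beside 12.6% of all. The log2 fold change was below 0 for 70 (63.1%), beside 47.5% of all, and its median was -0.09, beside 0.01. The 35 were 16 of 38 voltage-gated potassium pores, 4 of 12 inward rectifiers, 4 of 11 leak channels, 3 of 7 calcium- and sodium-activated channels, 3 of 9 calcium pores, 2 of 13 potassium auxiliary subunits, and 1 each of 10 sodium pores, 4 sodium beta subunits and 4 calcium beta subunits.

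**Figure D4:**
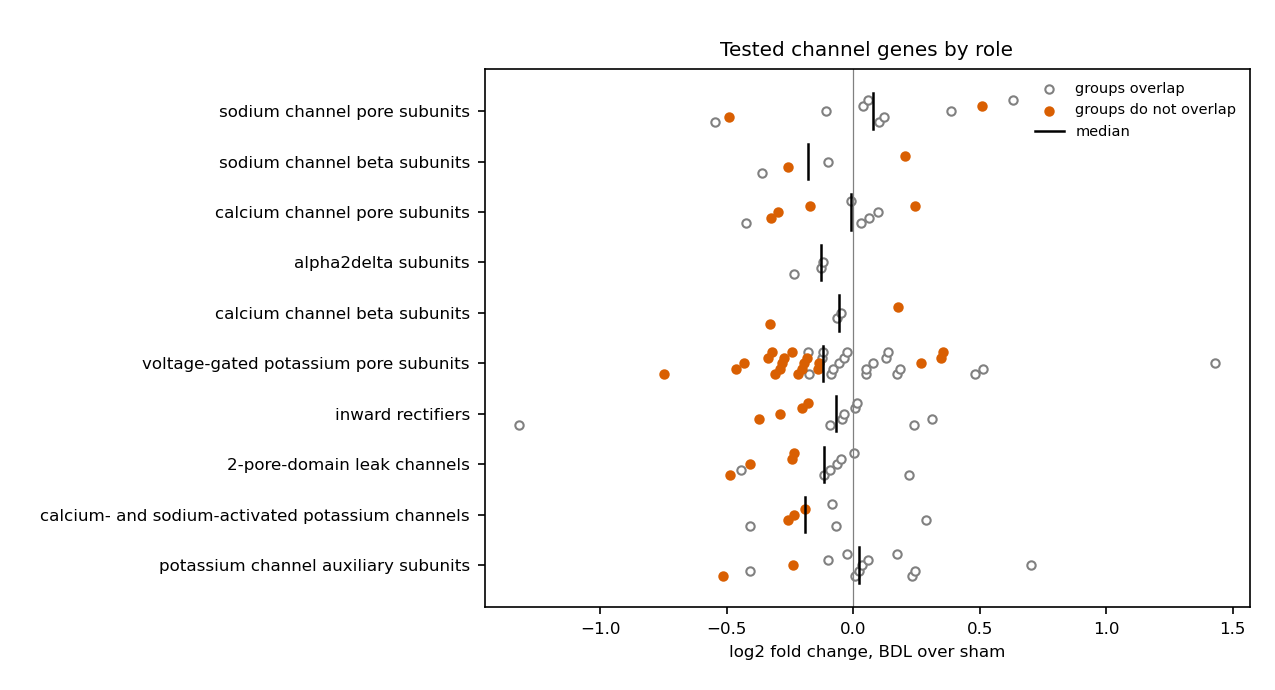
Log2 fold change of the 111 tested channel genes in BDL over sham rats (x axis), by role (y axis), with filled points where the 3 BDL and 3 sham values do not overlap and black bars at the median of each role. Of the filled points 35 lie below 0 and 7 above, and no gene passed the edgeR threshold.

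The 3 channel genes with the smallest p were Kcnj14, Kcns1 and Cacna1h. Kcnj14, an inward rectifier of motor nuclei, stood at 10.9, 9.95 and 9.70 CPM in BDL rats and 13.1, 13.5 and 13.0 CPM in sham rats (log2 fold change -0.37 ± 0.11, adjusted p = 0.479). Kcns1, a silent subunit that modifies other voltage-gated pores, stood at 15.8, 20.8 and 22.5 CPM in BDL rats and 33.4, 31.7 and 34.2 CPM in sham rats (-0.75 ± 0.23, adjusted p = 0.536). Cacna1h was the exception in direction, with 0.25 ± 0.09 (adjusted p = 0.682). Scn1a stood at 125, 140.1 and 149.5 CPM in BDL rats and 213, 183 and 187 CPM in sham rats, with groups apart (-0.49 ± 0.34, adjusted p = 0.986). Kcnc1 stood at 129, 124 and 129.7 CPM in BDL rats and 172, 150.3 and 156 CPM in sham rats (-0.32 ± 0.26), and Kcnab3, an auxiliary subunit of voltage-gated potassium pores, at 22.0, 26.5 and 24.8 CPM in BDL rats and 36.7, 32.1 and 35.8 CPM in sham rats (-0.51 ± 0.28). The SE of the Scn1a fold change was 0.34 in this fit, in which all 12 libraries share 1 estimate of the spread, and 0.08 in a fit of the 6 BDL and sham libraries.

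Fitted without the vector libraries, the same contrast crossed the threshold. With BDL and sham rats alone, 15 of 109 tested channel genes passed (13.8%), 13 lower and 2 higher, where 2.63% of all tested genes passed. The lowered ones included Scn1a (-0.50 ± 0.08, adjusted p = 0.0184), Kcns1 (-0.75 ± 0.12), Kcnab3 (-0.52 ± 0.08), Kcnh5 (-0.47 ± 0.09), Kcnh7 (-0.44 ± 0.08), Kcnh1 (-0.34 ± 0.06), Kcnc1 (-0.33 ± 0.05), Cacnb4 (-0.33 ± 0.07), Cacna1i (-0.33 ± 0.06), Cacna1g (-0.30 ± 0.06), Kcns2 (-0.28 ± 0.06) and Kcnk1 (-0.24 ± 0.05). The raised ones were Cacna1h (0.24 ± 0.05) and Scn3b (0.20 ± 0.04). By role these hold T-type calcium pores in both directions, Cacna1g and Cacna1i lower and Cacna1h higher. Without sham 2, AAV-GFP 1 and AAV-VEGFC 1, 10 passed, all lower (beside 1.62% of all tested genes), and limma voom called 7 (beside 2.70%). Pan-neuronal markers summed to 5240.2, 5216 and 5314 CPM in BDL rats and 6127, 5684 and 5809 CPM in sham rats, with 3 of 6 markers lower without overlap and none past the test. Inhibitory neuron markers summed to 767, 706 and 805 CPM in BDL rats and 839, 886 and 811 CPM in sham rats, also lower without overlap. The sum of the excitatory neuron markers ran the other way, at 3260.4, 3163 and 3152 CPM in BDL rats and 3078, 2948 and 3112 CPM in sham rats. Of these 5 markers, 2 were higher and 1 lower without overlap. Their log2 fold changes ran from -0.54 to 0.11. The 4 red blood cell markers were all called higher in BDL rats, at sums of 588, 803 and 404 CPM in BDL rats and 108, 147 and 119 CPM in sham rats. The part of these in the channel values was not tested.

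Channel genes varied more within a group than genes at large. The median coefficient of variation over the 3 libraries was 29.0% in AAV-VEGFC rats, 17.1% in AAV-GFP rats, 7.99% in BDL rats and 7.90% in sham rats, where all tested genes had 17.2%, 8.57%, 6.31% and 5.87%. Kcnd3, an A-type potassium pore, took one of 2 levels. It stood at 27.1, 134 and 27.6 CPM in AAV-VEGFC rats, 32.9, 129.6 and 117 CPM in AAV-GFP rats, 162, 129.9 and 128 CPM in BDL rats and 127, 122 and 135 CPM in sham rats. Low values were found in AAV-VEGFC 1, AAV-VEGFC 3 and AAV-GFP 1. Kcnip2, an auxiliary subunit of such A-type pores, did likewise in other libraries. It stood at 12.5, 1.60 and 1.34 CPM in AAV-VEGFC rats, 1.27, 2.34 and 3.22 CPM in AAV-GFP rats, 15.9, 1.74 and 15.4 CPM in BDL rats and 1.58, 11.6 and 16.1 CPM in sham rats. High values thus occurred in every group except AAV-GFP, and with all libraries no comparison called either gene (smallest adjusted p 0.224 for Kcnd3 and 0.251 for Kcnip2). Without AAV-VEGFC 2, Kcnd3 was called lower in AAV-VEGFC against BDL (log2 fold change -2.36 ± 0.46, adjusted p = 0.0106).

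Scn7a, a pore that senses sodium in circumventricular organs, stood at 0.0757, 0.718 and 0.527 CPM in AAV-VEGFC rats, 1.08, 0.376 and 0.851 CPM in AAV-GFP rats, 1.52, 0.956 and 2.17 CPM in BDL rats and 1.29, 1.39 and 1.79 CPM in sham rats, a ratio of highest to lowest library of 28.7. Scn4b, the beta subunit of striatal and cerebellar neurons, stood at 106, 191 and 515 CPM in AAV-VEGFC rats, 263, 98.2 and 191 CPM in AAV-GFP rats, 130.4, 125 and 173 CPM in BDL rats and 159, 249.8 and 141 CPM in sham rats. The 8 striatum markers summed to 727, 848 and 1699 CPM in AAV-VEGFC rats, 1407, 302 and 711 CPM in AAV-GFP rats, 743, 456 and 807 CPM in BDL rats and 657, 1068 and 470.2 CPM in sham rats. In each group the library with the most Scn4b was also the one with the highest striatum sum. That list was drawn up after these values were seen. Kcnj13, the inward rectifier of choroid plexus, stood at 0, 0.678 and 0 CPM in AAV-VEGFC rats, 0.772, 0.841 and 0.554 CPM in AAV-GFP rats, 0.282, 1.74 and 0.321 CPM in BDL rats and 0.156, 5.52 and 0.167 CPM in sham rats. Sham 2 was the highest library, and Ttr, the main secreted protein of choroid plexus, stood at 1.31, 245 and 1.03 CPM in sham rats. In sham and AAV-GFP rats the library with the most Kcnj13 also had the highest choroid plexus marker sum. In BDL rats (26.9, 6.80 and 7.90 CPM) and AAV-VEGFC rats (18.7, 11.9 and 23.7 CPM) that library had the lowest sum. Kcnj13 lies within Gigyf2 in the RefSeq annotation.

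**Figure D5:**
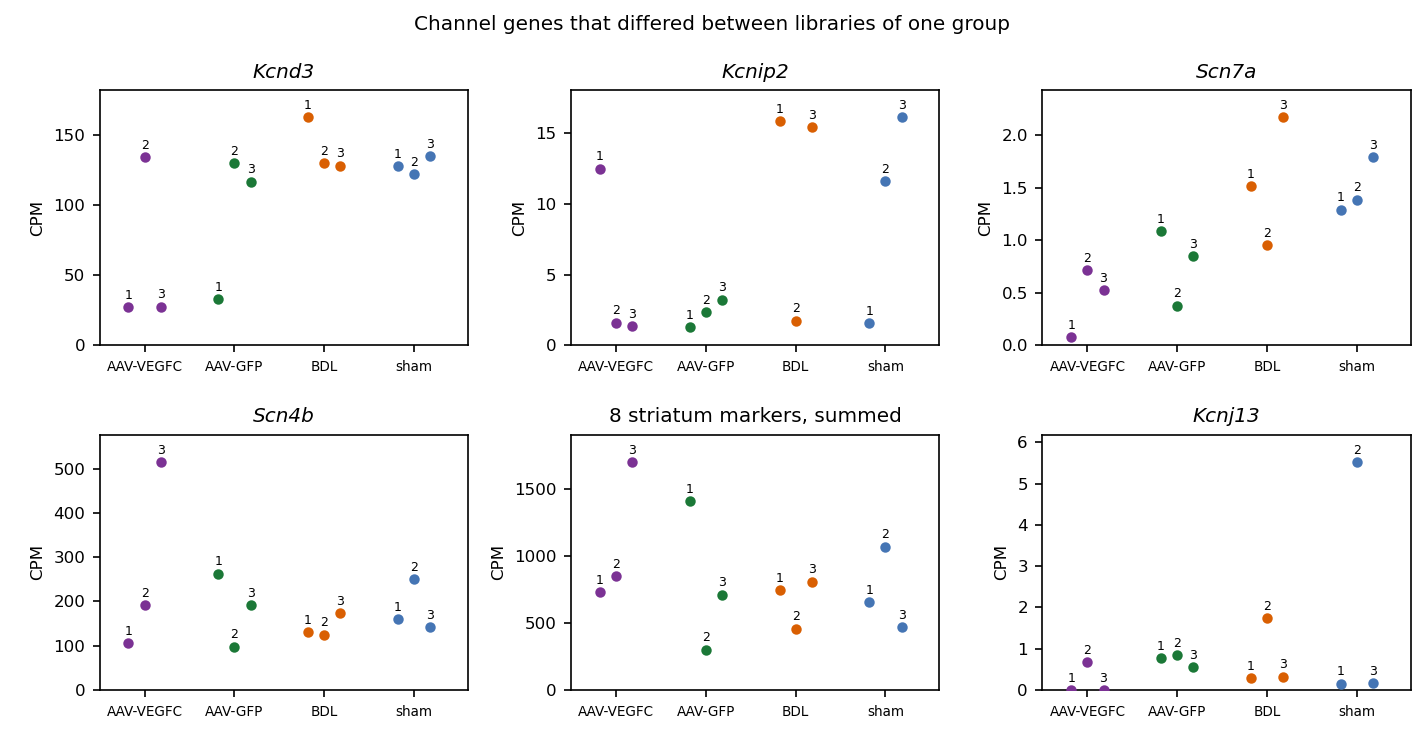
CPM of 5 channel genes and summed CPM of 8 striatum markers by group (x axis), with points numbered by library. Kcnd3 and Kcnip2 fall into high and low libraries within a group, Scn7a is lowest in AAV-VEGFC 1, Scn4b and the striatum sum are highest in AAV-VEGFC 3, and Kcnj13 is highest in sham 2.

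Partners of the channels outside these families gave 1 call. Of 41 listed genes, such as the pacemaker channel Hcn2, the calcium channel and AMPA receptor partners Cacng1 to Cacng8, the sodium channel partners Fgf11 to Fgf14 and the anchor Ank3, 36 were in the table and 35 were tested. None passed in AAV-VEGFC against AAV-GFP, AAV-GFP against BDL or BDL against sham rats. Of all tested genes 9.93% were called in AAV-VEGFC against BDL rats, 7.02% lower. Among the 35 partners 1 passed there, lower. It was Rimbp2, which ties calcium channels to the release site, at 142, 171 and 160.5 CPM in AAV-VEGFC rats, 169, 214 and 199 CPM in AAV-GFP rats, 255, 255 and 234 CPM in BDL rats and 267, 250.1 and 270.0 CPM in sham rats. Every vector value lay below every value without a vector, and the log2 fold change against BDL was -0.65 ± 0.10 in AAV-VEGFC rats (adjusted p = 0.00203) and -0.35 ± 0.10 in AAV-GFP rats (adjusted p = 0.0572). Hcn2 had 0.30 ± 0.11 in AAV-VEGFC rats and 0.22 ± 0.11 in AAV-GFP rats, and Ank3 had -0.34 ± 0.13 in AAV-VEGFC rats and -0.30 ± 0.13 in AAV-GFP rats. In AAV-VEGFC rats 8 of the 35 lay wholly below the BDL range and 0 above, beside 18.3% and 14.6% of all tested genes. In AAV-GFP rats 7 lay below and 1 above, beside 20.0% and 18.2%.

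Of the 120 channel genes, 98 had a mean of at least 1 CPM over the 12 libraries, 77 at least 10 CPM and 35 at least 100 CPM. Channel genes with too few reads for the test were Cacna1f, the retinal L-type pore, with 60 counts over all libraries, Kcne3 with 33, Cacna2d4 with 25, Kcnj1 with 21, Kcna10 with 5, Kcnk6 with 2, and Kcne1, Kcnk18 and Kcnmb3 with 0. At this depth a count of 0 does not show that these genes are silent.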

How the data were processed

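RNA was taken from rat brain with Trizol and sequenced as TruSeq RNA libraries, per the labels' protocols. The submitters' processing notes name FastQC, Trimmomatic 0.36, HISAT2, featureCounts and the rn6 build; no settings, annotation or strandedness were found, so reads of overlapping or antisense genes cannot be told apart. The authors deposited raw whole-number counts per gene symbol, in which 26 row names had been turned into dates. Columns were matched to samples by the names of the single-library files that the labels list, groups were taken from the titles, and 0 columns were left unused. Nothing ties a library to an animal beyond the stated 3 rats a group, so the p-values measure the spread between these libraries. Replicate libraries differed beyond sampling noise (chi-square per degree of freedom 11.6 to 227).

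The counts were fitted in edgeR 4.0.16 (R 4.3.3): TMM factors, filterByExpr, and a quasi-likelihood model with 1 mean per group over the 12 libraries. Calls were made at a Benjamini-Hochberg adjusted p below 0.05. Each SE is the fold change divided by the root of its F statistic. On simulated counts with 200 changed genes per comparison, the fit called 71% of 2-fold and 90% of 4-fold changes in AAV-GFP against BDL (12757 genes, 6 false calls) and 84% and 94% in AAV-VEGFC against BDL (12746 genes, 7 false calls). It called 75% and 92% in BDL against sham (12735 genes, 8 false calls), and 75% and 93% in AAV-VEGFC against AAV-GFP (12734 genes, 13 false calls). The simulated spread followed the trend over all genes, without a spread of each gene's own and without libraries that stood apart. Changes under 2-fold were not simulated. These shares therefore need not hold for channel genes, which varied more within a group. Alternatives were DESeq2 1.42.0 (its size factors, then its own test), limma 3.58.1 voom with quality weights, no filter, a minimum of 1 CPM in 3 libraries, fits of only the groups compared, a block for the replicate number, and fits without single libraries or without the 3 that stood apart.

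The channel genes, the lists and the alternatives were chosen with earlier results of these data known, and the striatum list was added after values were seen. For each comparison the named genes were up to 12 called in each direction with a mean of 1 CPM or more, or the 3 smallest p-values where fewer than 3 passed, with channel genes of wide range between libraries and main members of each family; some genes under this rule are not reported here. Other genes are named after their values were seen: Kcnd3, Kcnip2, Kcnj6, Kcnj16, Kcnk16 in AAV-GFP against BDL, and those called only under an alternative. Gene names and promoters came from RefSeq tables of another build (GRCr8), so gene lengths were not used. All 120 channel genes matched by symbol, and 82 had a promoter.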

Additional observations from a re-analysis of the deposited data

How the results depend on the processing

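The counts of called channel genes stayed within 1.5 times of those reported with DESeq2 size factors, with no filter and with a minimum of 1 CPM in 3 libraries. In AAV-GFP against BDL (5 called), DESeq2 called 8 (7.21% of channel genes, beside 11.6% of all tested genes), limma voom 34 (30.6%, beside 36.5%), the fit of only those groups 10 (9.26%, beside 16.1%) and the fit without sham 2, AAV-GFP 1 and AAV-VEGFC 1 called 32 (28.8%, beside 28.3%). In AAV-VEGFC against BDL (7 called) DESeq2 gave 12 (10.8%, beside 18.4%), limma voom 23 (20.7%, beside 19.4%), the fit of only those groups 1 (0.926%, beside 2.62%) and the fit without the 3 libraries 37 (33.3%, beside 24.2%). In BDL against sham (0 called) limma voom gave 7 (6.31%, beside 2.70%), the fit of only those groups 15 (13.8%, beside 2.63%) and the fit without the 3 libraries 10 (9.01%, beside 1.62%). In AAV-VEGFC against AAV-GFP (0 called) the fit without the 3 libraries gave 33 (29.7%, beside 9.26%). Leaving out single libraries gave 1 to 10 calls in AAV-GFP against BDL, 2 to 21 in AAV-VEGFC against BDL, 0 to 2 in AAV-VEGFC against AAV-GFP and 0 in BDL against sham. The cause was not tested.

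With a replicate block, AAV-GFP against BDL gave 3 calls (2.7027% of channel genes, beside 4.28% of all tested genes). AAV-VEGFC against BDL gave 4 (3.6036%, beside 7.04%), and the other comparisons gave 0. The block ended the AAV-GFP calls of Cacna1d (adjusted p = 0.0719) and Cacna1e (0.0880) and the AAV-VEGFC calls of Cacna1d (0.0524), Kcnk4 (0.0595) and Kcnt2 (0.0790). The libraries share only a number: correlations of same-numbered deviations ran from -0.106 to 0.121.

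Of the alternative values of named genes, 2333 kept their side of the threshold, changes of direction without a call in either fit included. A further 102 passed it newly, 45 lost it, and 8 reversed direction with a call in the main or the alternative fit. These 8 were uncalled with all libraries and reversed without the 3 libraries, to 0.18 for Scn2a, 0.32 for Scn3a, 0.24 for Cacna1b, 0.31 for Cacna1g and 0.64 for Cacna2d2 in AAV-VEGFC against AAV-GFP, and to 0.19 for Scn2b, 0.22 for Kcna1 and 0.31 for Kcna2 in AAV-VEGFC against BDL. With 3 libraries a group, or 2 after such removal, small differences are not detectable, and levels under 1 CPM rest on few reads. The planned description by gene length was not run for want of lengths on the files' build.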
